A study of Mus musculus with 12 samples.

Results

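Transcripts of 6 airway and lung genes, Scgb1a1, Scgb3a1, Bpifa1, Sftpb, Sftpc and Foxj1, were followed in RNA of mouse heart samples. All probes of the non-normalized table that the platform annotation gives to these genes were taken, which made 8 probes of 25697, for 6 genes of 16590 named genes. The genes were chosen by their measured intensities on these arrays, since some arrays were known to show airway transcripts, so their levels and differences are given as a description, and nothing is read from a test of them. Hearts came from C57Bl/6 mice: 4 aged mice of 30 to 32 months given the polyamine spermidine at 3 mM in drinking water since they were 4 months old, 4 untreated aged mice of 30 to 32 months, and 4 untreated young mice of 6 months. Total RNA was amplified, labelled with biotin and hybridised to 12 Illumina bead arrays, taken as 1 array per animal because each title carries its own number. No other label says so, and the p-values below therefore cover only the spread between these samples. What part of the heart was taken, and whether vessels or airway were trimmed from it, is not given in the sources used here.

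Airway epithelium lines the trachea and bronchi and is built mainly of secretory and ciliated cells. Secretory (club) cells release small proteins such as secretoglobins and defence proteins of the BPI fold family, and carry cytochrome P450 enzymes that metabolise inhaled compounds. Ciliated cells move the mucus, and their motile cilia are made under the transcription factor Foxj1. Alveolar type II cells, deep in the lung, make surfactant, of which Sftpb and Sftpc are hydrophobic proteins. None of these cells belongs to the heart, while the trachea, the bronchi and the thymus lie beside its base. In bulk samples, fewer cells of a type and less RNA per cell cannot be told apart.

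The promoters of the members are shown because secretory and alveolar genes share a known regulator, the homeodomain factor Nkx2-1. The windows are the 250 bases before the gene start in the RefSeq table of build GRCm38.p6, which matched 3 of the 6 genes, and capitals mark CTCAAG, the core letters that Nkx2-1 prefers, on either strand.
Scgb3a1 (chr11:49663345-49663594, + strand): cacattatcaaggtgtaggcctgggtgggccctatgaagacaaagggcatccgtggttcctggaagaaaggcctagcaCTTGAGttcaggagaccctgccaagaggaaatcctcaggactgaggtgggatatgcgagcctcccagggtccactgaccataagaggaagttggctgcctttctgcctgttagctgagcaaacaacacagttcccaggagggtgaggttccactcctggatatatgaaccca
Bpifa1 (chr2:154142630-154142879, + strand): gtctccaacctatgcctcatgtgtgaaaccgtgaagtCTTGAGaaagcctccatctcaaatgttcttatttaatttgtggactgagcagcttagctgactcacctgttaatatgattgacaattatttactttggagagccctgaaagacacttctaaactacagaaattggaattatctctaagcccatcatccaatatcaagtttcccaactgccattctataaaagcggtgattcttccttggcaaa
Sftpb (chr6:72304360-72304609, + strand): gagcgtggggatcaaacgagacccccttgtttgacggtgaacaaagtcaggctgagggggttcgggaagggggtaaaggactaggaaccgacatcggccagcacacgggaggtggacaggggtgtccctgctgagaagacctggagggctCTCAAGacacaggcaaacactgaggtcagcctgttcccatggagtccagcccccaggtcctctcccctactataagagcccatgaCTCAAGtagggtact
Scgb3a1, a secretoglobin of airway secretory cells, held 1 match, and Bpifa1, a secreted defence protein of the upper airway, also held 1. Sftpb, the alveolar surfactant protein, held 2. The same letters were present in 13.6% of 27018 promoter windows of this length. The forkhead letters TGTTTAC (3.09% of windows) and the C/EBP letters TTGCNNAA (9.56%), searched on both strands, were in none of the 3 windows. All other measured genes of airway secretory cells that had a window were searched too. Cyp2f2, Bpifb1, Ltf, Cbr2, Gabrp, Agr2, Pigr, Sec14l3, Wfdc2 and Cyp2a5 held 0 CTCAAG matches. Reg3g and Spdef held 1 each, and Cldn10 held 1 in only 1 of its windows. Such matches describe the letters of the window only. Scgb1a1, Sftpc and Foxj1 are named only.

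The arrays were alike in depth of signal. Mean intensity per array lay between 259 and 313 units, and between 11689 and 12337 probes lay above the background limit, which was 3 times the SD of an array's negative values reflected around 0 (13.2 to 15.8 units). Within a group, arrays correlated at 0.983 to 0.985 for spermidine, 0.977 to 0.985 for aged and 0.979 to 0.991 for young over 20573 probes. All 9 measured cardiomyocyte markers lay above the limit on every array, with a summed intensity of 86329 to 93515 in spermidine hearts, 88326 to 97168 in aged hearts and 81704 to 93594 in young hearts. The labelled tissue was thus borne out by its own markers on each array. A pair of arrays stood apart for airway transcripts, spermidine replicate 3 and young replicate 4, and they are named with each result that rests on them. Aged replicate 1 stood apart for atrial genes: it had the lowest summed intensity of 6 such genes, 13309 units.

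Scgb1a1, the main secretoglobin of club cells and their standard marker, was at background on 10 of the 12 arrays and bright on the other two. Its intensity was 2, -5, 3005 and 1 in spermidine hearts 1 to 4, 5, -1, -1 and -2 in aged hearts 1 to 4, and 1, 8, 5 and 7620 in young hearts 1 to 4. Spermidine replicate 3 and young replicate 4 thus carried the whole signal, at 199 and 544 times the background limit of their own arrays, and no aged array was above the limit. On the log2(intensity + 16) scale after quantile normalization, Scgb1a1 averaged 5.79 ± 3.80 in spermidine hearts, 4.00 ± 0.27 in aged hearts and 6.48 ± 4.28 in young hearts (SD, n = 4 each). The means followed the order young, spermidine, aged, but none of these neighbours differed beyond its spread. Its spread within groups ranked 2 among 20573 probes.

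Bpifa1 (PLUNC), a secreted defence protein of nasal and large-airway epithelium, had the same pattern. Its intensity was 6, 2, 552 and 3 in spermidine hearts, 0, -3, 2 and -2 in aged hearts, and 1, -2, -4 and 2402 in young hearts, in the order of replicates 1 to 4. The same pair of arrays was above the limit, at 36.6 times the limit on spermidine replicate 3 and 172 times on young replicate 4. Group means were 5.48 ± 2.38 in spermidine hearts, 3.92 ± 0.20 in aged hearts and 5.69 ± 3.71 in young hearts on the log2 scale (SD, n = 4 each), and the spread within groups ranked 3 among 20573 probes.

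Scgb3a1, a second secretoglobin of airway secretory cells, was weak, and the annotation gave 2 probes to it. These probes stand for different transcript records, so they may not read the same gene, and this was not tested. The brighter probe, ILMN_2638082, had intensities of -2, 4, 22 and 1 in spermidine hearts, -3, -3, -3 and 1 in aged hearts, and -7, -4, -6 and 96 in young hearts. It was above the limit on the same pair of arrays. The other probe, ILMN_2658200, had -1, 0, 12 and -3 in spermidine hearts, 5, 4, 0 and -2 in aged hearts, and 3, 2, -8 and 42 in young hearts, and was above the limit on young replicate 4 only. Spermidine replicate 3 was its highest array outside the young group, but its 12 units lay below that array's limit of 15.1. Group means of the brighter probe were 4.34 ± 0.60 in spermidine hearts, 3.81 ± 0.19 in aged hearts and 4.23 ± 1.74 in young hearts (log2, SD, n = 4 each).

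**Figure D1:**
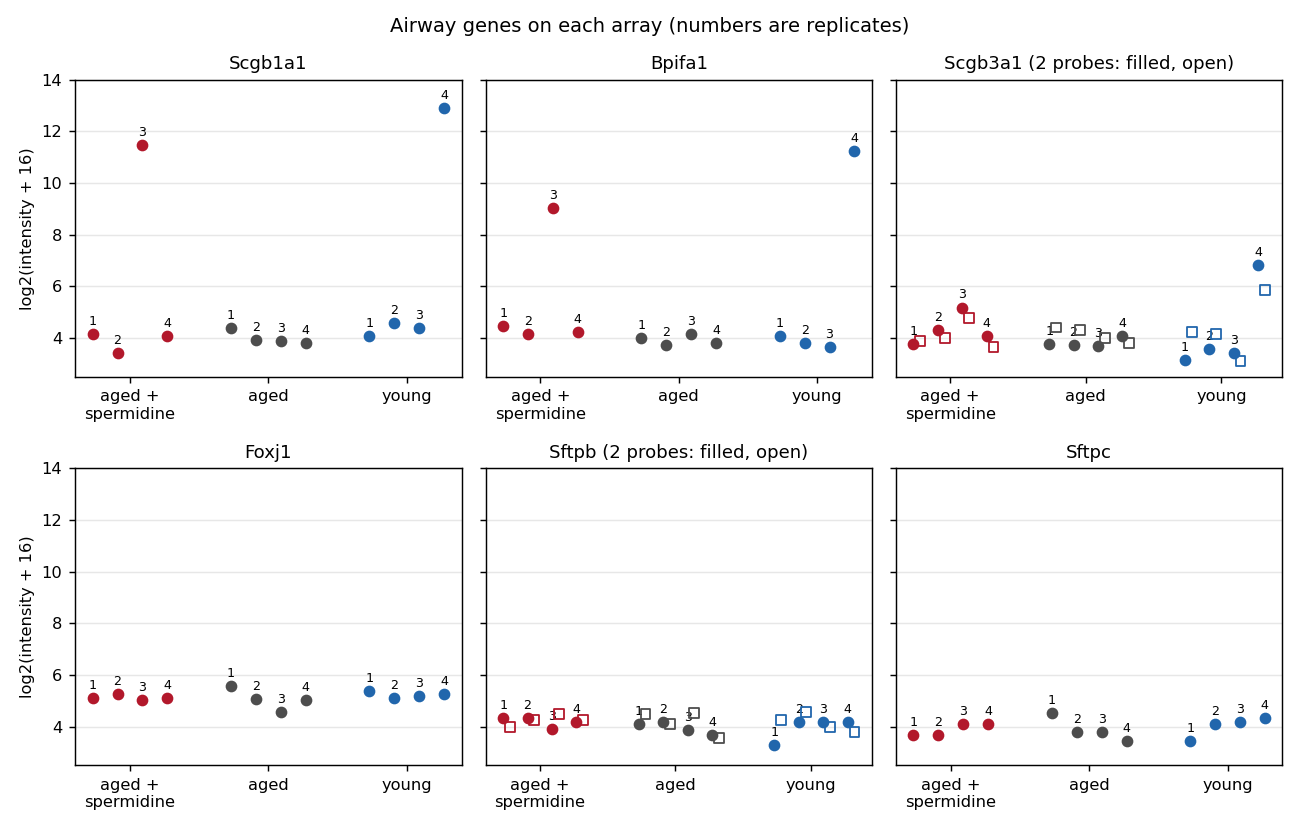
Intensity of each of the 8 probes on each of the 12 arrays, by gene and group, with replicate numbers beside the points. Scgb1a1, Bpifa1 and Scgb3a1 lie at background except on spermidine replicate 3 and young replicate 4, while Foxj1 shows no such array and Sftpb and Sftpc stay below the limit throughout.

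Foxj1, the transcription factor that switches on the genes of motile cilia, did not share this pattern. Its intensity was 18, 20, 18 and 16 in spermidine hearts, 29, 19, 8 and 17 in aged hearts, and 25, 19, 22 and 23 in young hearts. It lay just above the limit on 11 of 12 arrays, and was below it on aged replicate 3. Spermidine replicate 3 and young replicate 4 were within the range of the other arrays. Group means were 5.12 ± 0.09 in spermidine hearts, 5.06 ± 0.40 in aged hearts and 5.23 ± 0.11 in young hearts (log2, SD, n = 4 each), and the groups overlapped.

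The surfactant genes of alveolar type II cells were not detectable at this signal. Sftpb, which spreads surfactant at the air surface, was read by 2 probes. ILMN_2733762 had intensities of 4, 4, -1 and 2 in spermidine hearts, 1, 2, -1 and -3 in aged hearts, and -6, 2, 2 and 2 in young hearts. ILMN_2792670 had 0, 3, 7 and 3 in spermidine hearts, 6, 1, 7 and -4 in aged hearts, and 3, 8, 0 and -2 in young hearts. Sftpc, made almost only by alveolar type II cells, had -3, -3, 1 and 1 in spermidine hearts, 7, -2, -2 and -5 in aged hearts, and -5, 1, 2 and 4 in young hearts. All 3 probes lay below the limit on 12 of 12 arrays, so no fold is given, and the values have no order at this level.

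Some of the other genes of airway secretory cells were high on the same arrays. Of 16 measured genes of this kind, 5 (31.2%) on spermidine replicate 3 and 10 (62.5%) on young replicate 4 were at least 2-fold over their median of the 12 arrays and above the limit, and on each of the other 10 arrays 0 were. Over all 16590 genes, the same rule called 87 (0.524%) on spermidine replicate 3 and 149 (0.898%) on young replicate 4, against 15 (0.0904%), 47 (0.283%) and 36 (0.217%) on spermidine replicates 1, 2 and 4, 53 (0.319%), 97 (0.585%), 77 (0.464%) and 69 (0.416%) on aged replicates 1 to 4, and 5 (0.0301%), 16 (0.0964%) and 11 (0.0663%) on young replicates 1 to 3. Aged replicate 2 thus had more such genes than spermidine replicate 3. Of the members themselves, 3 of 6 met it on each of these arrays. The summed intensity of the 16 secretory genes was 275 to 1684 in spermidine hearts, 269 to 393 in aged hearts and 284 to 4561 in young hearts, and 4 of them were above the limit on no array. These lists were written with the airway signal of these arrays known, so their counts describe it and are no independent evidence.

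Cyp2f2, the cytochrome P450 of club cells, had 281 units on spermidine replicate 3 and 1070 on young replicate 4, against 0 to 12 on the other 10 arrays. Cyp2a5, another P450 of airway and liver that has a near-identical neighbour in the genome, so that its probe may read more than 1 gene, had 138 and 428 units on these arrays, against -5 to 9. Ltf, lactoferrin, an iron-binding protein of mucosal secretions and of neutrophil granules, had 364 and 826 units, against 7 to 13. By their brightest probes these genes lay above the rest without overlap on the pair of arrays. They were picked for a large gap between their highest array and their median, so this partly follows from the choice. A dimmer Ltf probe, ILMN_2889020, had 2 and 0 units and was above the limit on no array. Of the dimmer Cyp2a5 probes, ILMN_1229267 had 65 and 158 units, ILMN_2734598 had 62 and 193, and ILMN_3079804 had -2 and 3. Wfdc2, a secreted protease inhibitor of airway epithelium, had 277 units on spermidine replicate 3 and 954 on young replicate 4, against 10 to 50 on the others. A dimmer Wfdc2 probe, ILMN_2759344, had 9 and 53 units, against -5 to 8, and was above the limit on young replicate 4 only. Bpifb1, the longer relative of Bpifa1, was named after its values were seen and had 31 and 212 units, against -2 to 6. The other Bpifb1 probe, ILMN_3133532, had 32 and 213 units, against -7 to 5.

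Genes of ciliated cells stood out in part on these arrays. Of 18 measured genes, 1 on spermidine replicate 3 and 4 on young replicate 4 met the 2-fold rule, and 10 were above the limit on no array. Dynlrb2, a light chain of dynein, had 23 and 82 units on these arrays, against -8 to 7 on the other 10. Cdhr3, a cadherin of ciliated cells, had 16 units on spermidine replicate 3 and 34 on young replicate 4, against 0 to 7. Rsph1, a part of the radial spokes of cilia, had 35 and 58 units, against 8 to 33, and Tekt1, a filament of the ciliary microtubules, had 4 and 22 units, against -5 to 5. Dimmer probes of Cdhr3 (ILMN_3080273, 9 and 2 units) and Tekt1 (ILMN_2700097, 0 and 6 units) were above the limit on no array. Foxj1 itself, as given above, was within the range of the other arrays. The summed intensity of the list was 2408 to 3246 in spermidine hearts, 2189 to 3458 in aged hearts and 3393 to 4274 in young hearts, most of it from Mlf1, which all 12 arrays showed at 1990 to 4101 units.

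Among 10 measured alveolar type II genes, 2 met the rule on each of the same arrays, and 6 were above the limit on no array. The 6 were Sftpa1, Lamp3, Slc34a2, Cxcl15, Lpcat1 and Nkx2-1, which include a surfactant protein, the phosphate transporter of these cells and the factor named with the promoters. Sftpd, a surfactant collectin that large airways make too, had 31 units on spermidine replicate 3 and 110 on young replicate 4, against -8 to 0 on the other 10. Muc1, a membrane mucin of many epithelia, had 23 and 49 units, against 1 to 19. Napsa, a protease that processes surfactant protein, had 100 and 32 units, against 17 to 76, so only spermidine replicate 3 stood above the rest. Of 5 alveolar type I genes, 1 met the rule on each array: Aqp5, a water channel of alveoli and of airway glands, had 35 and 43 units, against 2 to 14.

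**Figure D2:**
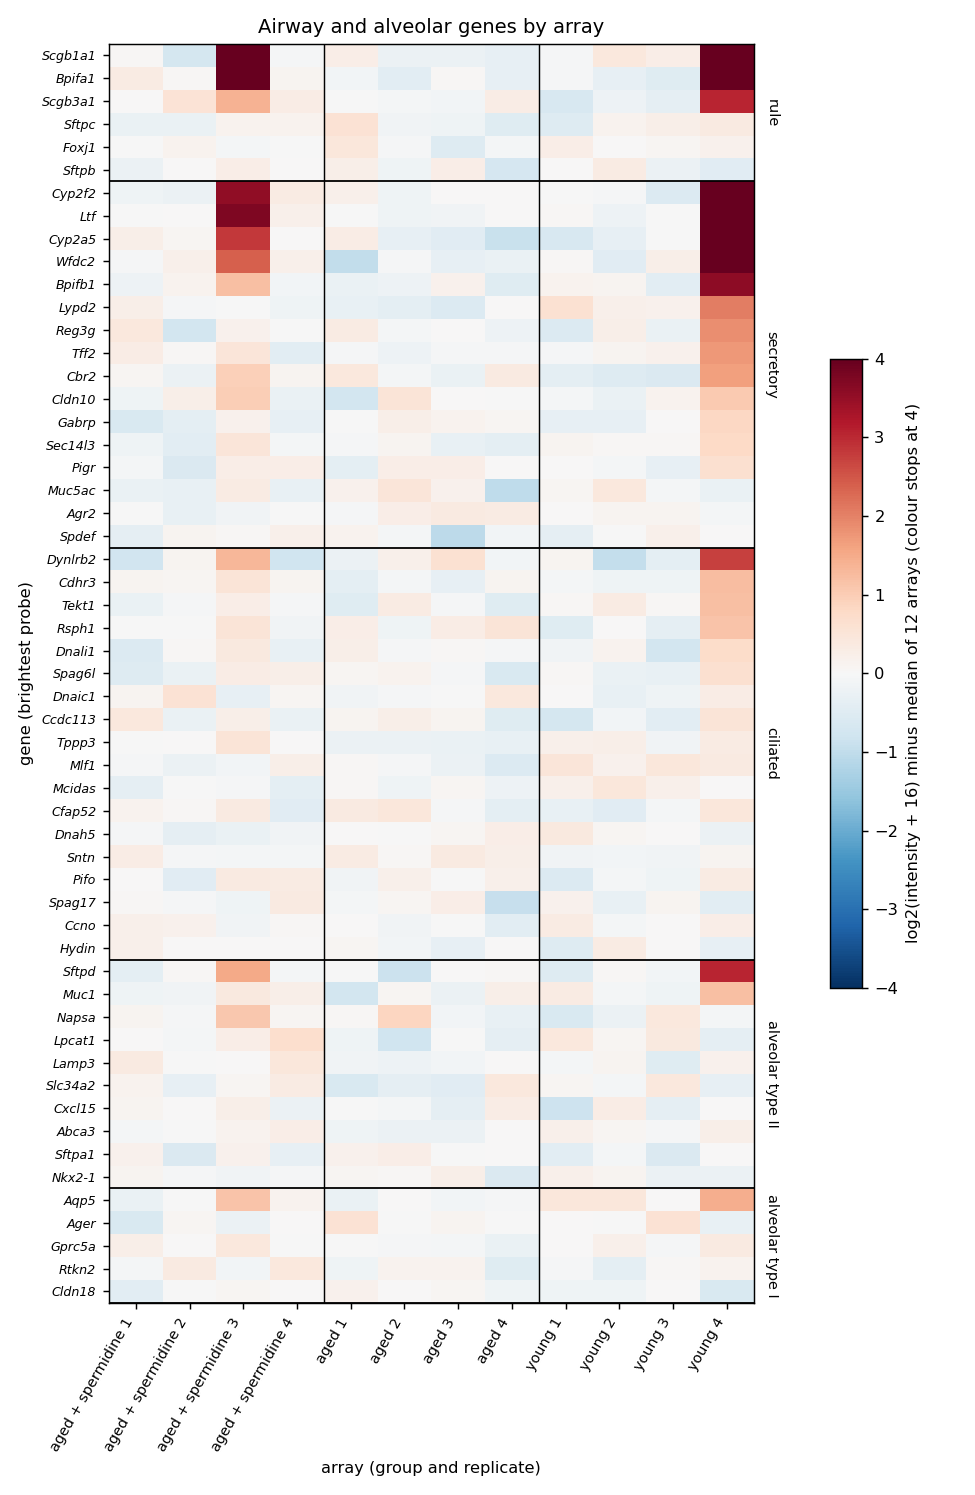
Log2(intensity + 16) minus the median of the 12 arrays for airway secretory, ciliated and alveolar genes (rows) on each array (columns, spermidine, then aged, then young). By the 2-fold rule, 5 of 16 secretory genes are high on spermidine replicate 3 and 10 of 16 on young replicate 4, beside 1 and 4 of 18 ciliated genes and 2 and 2 of 10 alveolar type II genes.

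The levels of the airway genes differed between these arrays. Spermidine replicate 3 had 39.4% of the Scgb1a1 intensity of young replicate 4, 23.0% of its Bpifa1 and 22.9% of its Scgb3a1. For other secretory genes this share was 26.3% for Cyp2f2, 44.1% for Ltf, 29.0% for Wfdc2, 32.2% for Cyp2a5 and 14.6% for Bpifb1. Some genes were above the limit on young replicate 4 only, such as Reg3g, an antimicrobial lectin named after its values were seen, with -2 units on spermidine replicate 3 and 30 on young replicate 4. Of 12 member and secretory genes above the limit on both arrays, 11 were dimmer on spermidine replicate 3, with a median share of 30.6% and a range of 14.6% to 105%. Of the 12, Foxj1, Lypd2, Cbr2, Cldn10 and Wfdc2 were also above the limit on 9 or 10 of the other 10 arrays. Foxj1 and Lypd2 were not raised on spermidine replicate 3, with 18 and 52 units against 8 to 29 and 27 to 83. Among all genes, 18 on spermidine replicate 3 and 50 on young replicate 4 lay at least 2 log2 units above their median of the 12 arrays. Of these, 16 were shared, which is 88.9% of the first list and 32.0% of the second. At 1 log2 unit the lists held 87 and 149 genes, of which 42 were shared (48.3% and 28.2%). Each array was 1 sample, so these are descriptions of these libraries.

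**Figure D3:**
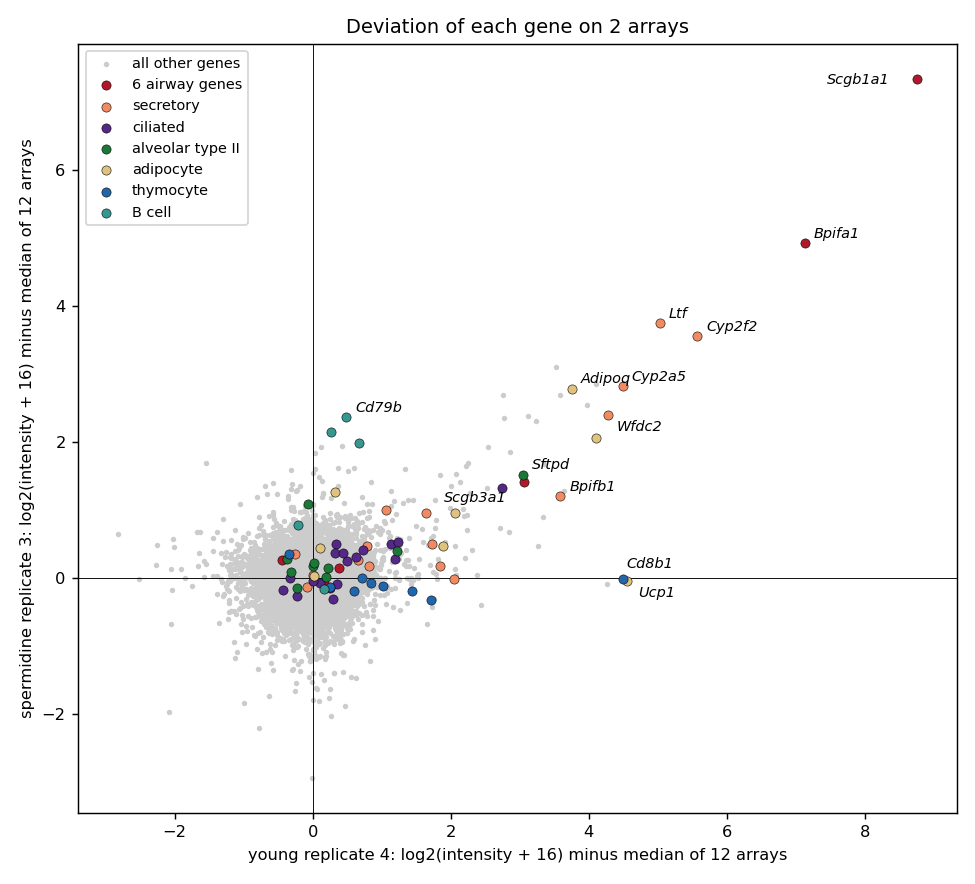
Each point is a gene, plotted by its log2(intensity + 16) minus the median of the 12 arrays on young replicate 4 (horizontal) and on spermidine replicate 3 (vertical), with members and listed genes coloured. Scgb1a1 lies farthest out, at 8.76 on young replicate 4 and 7.34 on spermidine replicate 3, and Bpifa1 next, at 7.13 and 4.92.

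Genes most like Scgb1a1 over the 12 arrays were sought among 169 probes, by the cosine of the log2 deviations from each probe's own median. Only probes above the limit on some array, with a largest deviation of at least 2 log2 units, were searched. A gene could thus enter through the arrays where it was high, so high cosines partly follow from this choice. The points share arrays and 2 arrays set most of the measure, so it has no p. Ltf (0.992), Bpifa1 (0.985), Cyp2f2 (0.982), Cyp2a5 (0.963) and Wfdc2 (0.943) were among the nearest 10, and Scgb3a1 had 0.901. The other nearest genes code for metabolic enzymes, carriers or plasma proteins, and Slc25a1, Acaca and Tkt were above the limit on all 12 arrays. Slc25a1, the mitochondrial citrate carrier (0.971), had 338 units on spermidine replicate 3 and 514 on young replicate 4, against 91 to 114 on the others. Acaca, the acetyl-CoA carboxylase of fatty acid synthesis (0.934), had 910 and 1650 units, against 152 to 326. Tkt, a transketolase of the pentose phosphate pathway (0.933), had 809 and 1546 units, against 221 to 348. Orm1, an acute-phase plasma protein (0.928), had 145 and 184 units, against 7 to 47. Mup6, of the large family of major urinary proteins whose members a probe may not separate (0.912), had 29 and 77 units, against -1 to 12.

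Markers of other tissues moved with the airway genes on these arrays, and their part in the result was not tested. Of 8 measured adipocyte genes, 3 met the 2-fold rule on spermidine replicate 3 and 5 on young replicate 4, and 3 also did on aged replicate 2 and 2 on aged replicate 3. Adipoq, the hormone adiponectin, had 640 units on spermidine replicate 3 and 1165 on young replicate 4, against 17 to 176 on the others, and Cidec, a lipid droplet protein, had 178 and 711 units, against 0 to 47. Ucp1, the uncoupling protein of brown fat, had 62 and 1689 units, against -9 to 207, so of this pair only young replicate 4 lay above the others. The highest of the others were aged replicates 2 and 3, with 159 and 207 units. The summed intensity of the adipocyte list was 927 to 2636 in spermidine hearts, 1258 to 1816 in aged hearts and 947 to 7768 in young hearts.

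Lymphoid markers differed between the pair. Of 9 measured thymocyte genes, 0 met the rule on spermidine replicate 3 and 3 on young replicate 4, with a summed intensity of 18 to 48 in spermidine hearts, 8 to 62 in aged hearts and 21 to 706 in young hearts. Cd8b1, a chain of the CD8 co-receptor, had 11 units on spermidine replicate 3 and 561 on young replicate 4, against 3 to 27 on the others. Rag1, a recombinase of developing lymphocytes, had 1 and 53 units, against 4 to 11, and Dntt, which adds bases at their receptor gene joints, had -4 and 23 units, against -6 to 3. Of 8 T cell genes, 0 and 4 met the rule on these arrays, and 2 did on aged replicate 3. Their summed intensity was 145 to 195 in spermidine hearts, 132 to 331 in aged hearts and 107 to 625 in young hearts. Of 5 B cell genes, 3 met it on spermidine replicate 3, 0 on young replicate 4 and 3 on aged replicate 2, with sums of 34 to 400 in spermidine hearts, 23 to 193 in aged hearts and 22 to 78 in young hearts. Cd79b, a chain of the B cell receptor, had 207 units on spermidine replicate 3 and 40 on young replicate 4, against 14 to 94. Aged replicates 2 and 3 thus held lymphoid and adipocyte genes that met the rule, and 0 secretory genes that did.

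Markers of general and basal epithelia stood out in part on young replicate 4. There 9.09% and 12.5% of these lists met the rule, beside 0.898% of all genes. Of 22 genes of epithelia in general, 0 on spermidine replicate 3 and 2 on young replicate 4 met the rule, and 1 did on aged replicate 3. The 2 were Krt8 and Krt18, the keratin pair of simple epithelia. Krt8 had 63 units on spermidine replicate 3 and 192 on young replicate 4, against 12 to 41, and Krt18 had 20 and 58 units, against -11 to 18. The general list summed to 145 to 272 units in spermidine hearts, 121 to 213 in aged hearts and 159 to 556 in young hearts. Of this list, 12 genes were above the limit on young replicate 4, against 5 to 8 on the other arrays. Of 8 basal epithelial genes, 0 and 1 met the rule (Krt17, a basal keratin, at -4 and 36 units, against -4 to 3). The basal list summed to 35 units on spermidine replicate 3 and 112 on young replicate 4, against 11 to 36 on the others. Of 16 cartilage genes, 0 and 1 did, and 1 did on aged replicate 1. Squamous epithelium (7 genes), thyroid and parathyroid (7) and mesothelium (6) gave 0 on both arrays, as did atrial (6), skeletal muscle (8), smooth muscle (7), neuron and Schwann cell (4) and mast cell (4) genes, though 1 atrial gene met it on aged replicate 2. Below the 2-fold rule, mesothelium genes still summed highest on spermidine replicate 3 and young replicate 4, at 1217 and 972 units, against 311 to 863 elsewhere. Mast cell genes did so too, at 180 and 149 units, against 23 to 109.

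**Figure D4:**
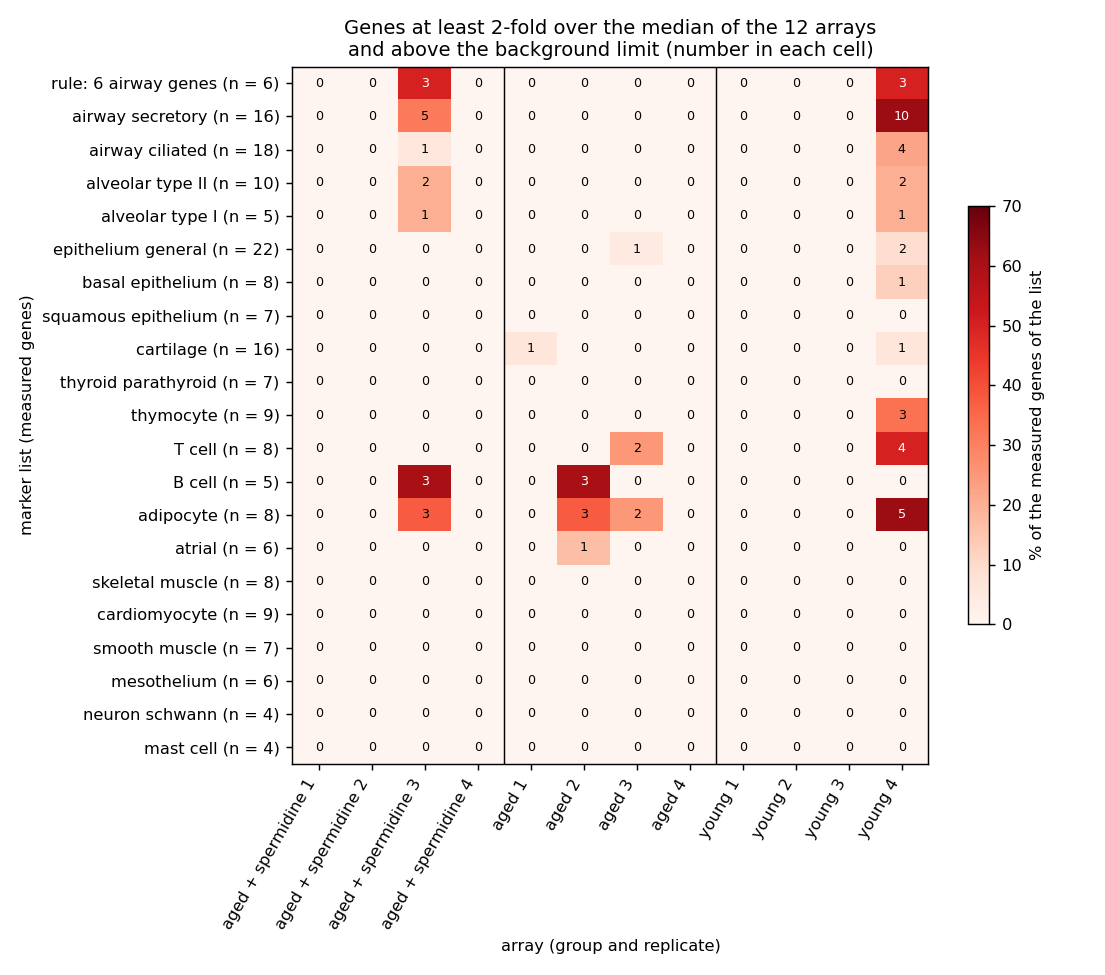
Number of genes of each marker list (rows) that were at least 2-fold over the median of the 12 arrays and above the background limit on each array (columns, spermidine, then aged, then young), with colour for the percent of the measured genes. Secretory genes are counted on spermidine replicate 3 (5 of 16) and young replicate 4 (10 of 16) and on no other array.

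The question the series put to these arrays is which heart transcripts differ with age and with spermidine. The group differences of the airway genes rested on single arrays. In aged against young hearts, Scgb1a1 differed by -2.48 (SE 1.92) and Bpifa1 by -1.77 (SE 1.48) on the log2 scale, and without young replicate 4 by -0.35 and 0.08. In spermidine against aged hearts, Scgb1a1 differed by 1.79 (SE 1.92) and Bpifa1 by 1.56 (SE 1.48), and without spermidine replicate 3 by -0.11 and 0.37. In spermidine against young hearts, Scgb1a1 differed by -0.70 (SE 1.92), by 1.44 without young replicate 4 and by -2.59 without spermidine replicate 3. Bpifa1 differed there by -0.21 (SE 1.48), by 1.64 and by -1.40 with the same arrays left out. Of these, Scgb1a1 in aged against young hearts and Bpifa1 in spermidine against aged hearts kept their sign, and the others changed sign with at least 1 of these arrays left out.

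No aged array was above the limit for Scgb1a1, Bpifa1 or Scgb3a1, and 1 of 4 arrays was for Scgb1a1 and Bpifa1 in each of the other groups, so these differences are of means made mostly of values at background and no fold is given. All 8 member probes passed the filter on dim probes, and 0 of 8 passed limma's adjusted p of 0.05 in each of the 3 comparisons (also 0 of 8 at an unadjusted p under 0.05). Over all 20573 probes, 0.797% passed in aged against young hearts (164 probes), 0.00486% in spermidine against aged hearts (1 probe) and 0.16% in spermidine against young hearts (33 probes). At an unadjusted limma p under 0.05, 2945, 1945 and 1540 of the 20573 probes passed in the same order. Nothing is read from the members' counts beside these numbers, since the members were chosen for their spread between arrays. Foxj1, at -0.18 (SE 0.17) in aged against young hearts, 0.06 (SE 0.17) in spermidine against aged hearts and -0.11 (SE 0.17) in spermidine against young hearts, had the smallest spread of the detected members. The comparisons share arrays, so their values are not independent.

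The other secretory, ciliated and alveolar genes gave no call either. Of 49 measured, 38 passed the filter, and by limma 0 passed the threshold in each comparison. Unadjusted limma p was under 0.05 for 7 in aged against young, 3 in spermidine against aged and 2 in spermidine against young hearts. Among all 20573 probes, 2945, 1945 and 1540 had such a p in the same order, and nothing is read from the counts of the 38. The lowest limma adjusted p among the brightest probes was 0.106 for Mlf1 in aged against young hearts, where its log2 difference was -0.56. A dimmer Mlf1 probe, ILMN_2658425, was above the limit on all 12 arrays and differed by -0.87 there (limma adjusted p = 0.0624). Mlf1, myeloid leukemia factor, is listed with ciliated genes and was also strong in every heart. With an offset of 50 in place of 16 its brightest probe passed (log2 difference -0.55, SE 0.13, limma adjusted p = 0.0435). The median log2 difference of the 38 was -0.25 in aged against young hearts, beside -0.01 over all probes, and -0.03 over the 32 genes left when spermidine replicate 3 and young replicate 4 were left out. In spermidine against aged hearts it was 0.16, and 0.10 without these arrays. In spermidine against young hearts it was -0.07, and 0.00 without them.

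**Figure D5:**
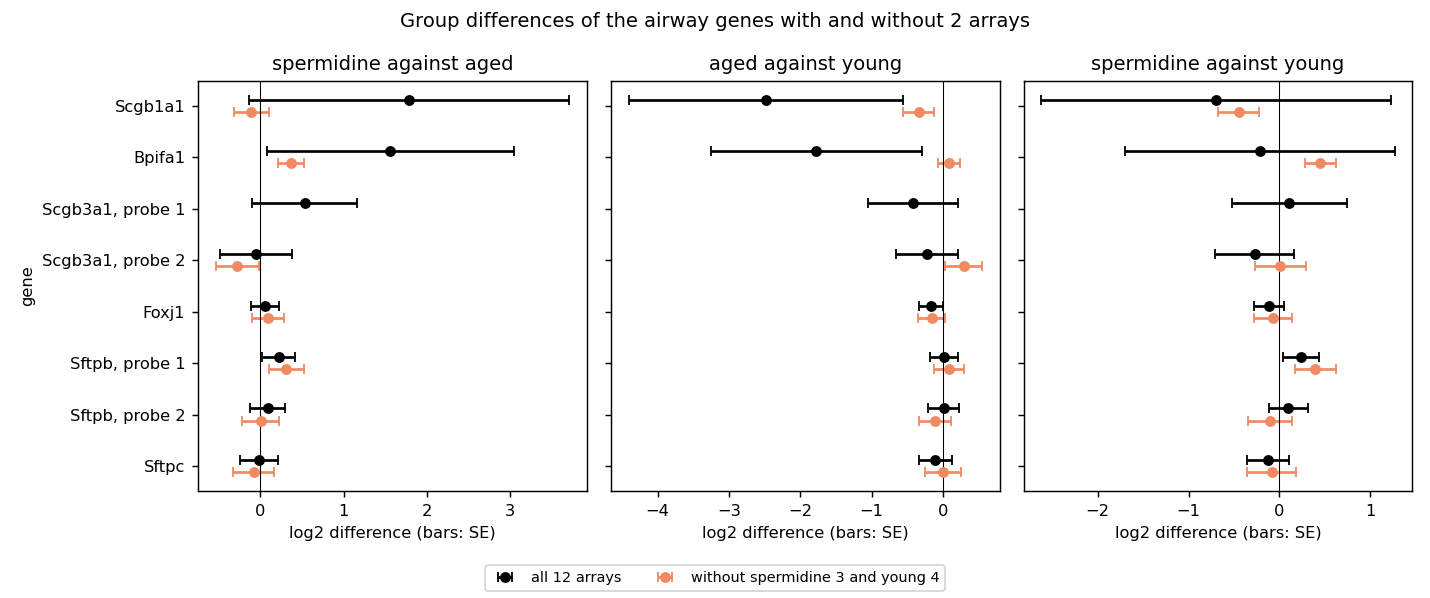
Log2 differences of the member probes in the 3 comparisons (points, with the SE of the limma fit as bars), with all 12 arrays and without spermidine replicate 3 and young replicate 4. Scgb1a1 moves to -0.34 in aged against young hearts, -0.11 in spermidine against aged hearts and -0.45 in spermidine against young hearts when these arrays are left out, and the brighter Scgb3a1 probe then fails the filter and has no point.

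Leaving out these 2 arrays also moved the calls over all genes. The 164 probes called in aged against young hearts became 71, of which 60 were among the 164. The 33 called in spermidine against young hearts became 13, of which 12 were among the 33. The single probe called in spermidine against aged hearts stayed called. It read Tmprss4, a membrane serine protease of epithelia that stood in the list of general epithelial genes through another, brighter probe, which did not pass. The called probe had -3, -2, 0 and -1 units in spermidine hearts, 43, 30, 23 and 22 in aged hearts, and -6, -6, -3 and 1 in young hearts (limma adjusted p = 0.0218 in spermidine against aged hearts). In aged against young hearts the same probe was called too, 1.89 higher on the log2 scale (limma adjusted p = 0.000664), as was a second Tmprss4 probe, ILMN_2428060, 1.43 higher (limma adjusted p = 0.0141). The first probe was above the limit on the 4 aged arrays only, where Scgb1a1 was at background. Its call in spermidine against aged hearts was lost when spermidine replicate 2 or 3 or aged replicate 1 or 3 was left out alone. Leaving out young replicate 1, 2 or 3 alone, on which 0 member and secretory genes met the 2-fold rule, gave 41 to 49 calls in aged against young hearts, and leaving out young replicate 4 alone gave 75.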

How the data were processed

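Values came from the deposited table called non-normalized, whose unit is linear intensity in whole numbers. Tested on it, 24.1% of values lay below 0, so the authors had already subtracted a background, and no detection p or control probes were used here. Intensities were quantile-normalized with limma 3.58.1 in R 4.3.3, 16 was added and log2 taken, which understates changes of dim probes. Probes above the array's 25th percentile on at least 4 of 12 arrays were kept (20573, 80.1%). A single limma model with 3 group means and all 12 arrays (9 residual degrees of freedom, two-sided, Benjamini-Hochberg adjusted p below 0.05 over all kept probes) gave each comparison. It was run on simulated data with normal spread and changes in all aged arrays. That setting held no single high arrays, so it says nothing of the members. The other deposited table, intensity that the authors had normalized (how is not given in the sources used here), was an alternative. Others were scaling to the 75th percentile, normexp, an offset of 50, no filter, array weights, fewer arrays and a replicate block. A first plan for a background correction from detection values could not be carried out.

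Probes were named by the platform annotation and updated with the RefSeq gene table of GRCm38.p6: 23978 probes had 1 symbol, 0 several and 1719 none, 23962 matched by Entrez ID and 8 symbols changed. Each listed gene was read by its brightest probe, and 189 of 216 listed genes were measured, the rest being not analysed here. Members and lists were chosen with earlier results of these data known. Named genes were the members, up to 4 genes per list with the largest gap between the highest array and the median, and the 10 genes nearest to Scgb1a1 by cosine, while others are marked. Bpifb1, Reg3g, Tmprss4, Mlf1, Lypd2, Cbr2, Cldn10, and the genes listed as below the limit were named after their values were seen. Same-numbered arrays of different groups did not deviate together (correlations of -0.18 to 0.11), so the numbers were not used as pairs. No 2 arrays held identical values. Neither sex nor slide nor scan date is given in the sources used here. Precision is limited by the number of arrays.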

Additional observations from a re-analysis of the deposited data

Results flagged for a closer look

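Within each group of 4 arrays, the gap between the most extreme array and its nearest neighbour was divided by the range of the group, on the log2 scale. Over 198 groups of 66 probes, 38 gaps were past the 95% limit for 4 values. A gap was counted only in groups with an array above the background limit, and the 198 include groups without one. No chance rate is set beside the 38. The genes were chosen for their highest array, so the flags describe that choice.

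For the members, the array set apart was spermidine replicate 3 among spermidine hearts and young replicate 4 among young hearts. The ratio of Scgb1a1 was 0.906 in spermidine and 0.946 in young hearts, that of Bpifa1 0.942 in each, and that of Scgb3a1 0.882 in young hearts. Among secretory genes on the same arrays, the ratios were 0.936 in spermidine and 0.951 in young hearts for Ltf, 0.850 and 0.913 for Cyp2f2, 0.923 and 0.877 for Cyp2a5, and 0.895 and 0.853 for Wfdc2. Bpifb1 was set apart in young hearts (0.862). Cdhr3, of ciliated cells, had 0.976 in spermidine and 0.947 in young hearts. Sftpd was set apart in young hearts (0.842) and Napsa in spermidine hearts (0.865).

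Among genes near Scgb1a1 in pattern, the same arrays were set apart for Slc25a1 (0.865 in spermidine, 0.856 in young hearts) and Orm1 (0.881 and 0.916), and young replicate 4 for Acaca (0.885) and Tkt (0.940). Among other lists, young replicate 4 was the extreme for Krt8 (0.860), Cd8b1 (0.992), Cd3g (0.859), Cd3e (0.957), Cidec (0.838), Adipoq (0.892), Plin1 (0.861), Upk3b (0.878) and Cd79b (0.831). Spermidine replicate 3 was the extreme for Cd79b (0.854), Cd79a (0.930) and Upk1b (0.836). Spermidine replicate 1 was the highest spermidine array for Cd8b1 (0.869), and aged replicate 3 the lowest aged array for Cma1 (0.877).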

How the results depend on the processing

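The size of the member differences between groups depended on the 2 airway-high arrays, as given above. The 164 calls in aged against young hearts became 299 in the authors' normalized table, 298 after normexp, 378 with an offset of 50, 90 without the filter, 372 with array weights, 97 with only the groups compared, 71 without the 2 airway-high arrays, and 53 without these and aged replicate 1. The 33 calls in spermidine against young hearts became 51 after normexp, 105 with array weights, 51 with only the groups compared and 13 without the 2 airway-high arrays. The single call in spermidine against aged hearts became 0 without the 2 airway-high arrays and aged replicate 1. Leaving out 1 array at a time gave 41 (without young replicate 1) to 591 calls (without aged replicate 4) in aged against young hearts, 0 (without spermidine replicate 2 or 3 or aged replicate 1 or 3) to 56 (without aged replicate 4) in spermidine against aged hearts and 16 (without young replicate 1) to 49 (without aged replicate 4) in spermidine against young hearts. Without aged replicate 1, 2 or 3, the 164 calls became 80, 78 and 106, and without young replicate 2, 3 or 4, 49, 42 and 75. The 33 calls became 19 and 18 without spermidine replicate 3 or 4, and 21 and 18 without young replicate 2 or 3. The settings without 2 or 3 arrays were chosen after seeing the data, and the cause of these moves was not tested, beyond the loss of arrays in those that leave arrays out. With the replicate number as a block, which the check of the pairing did not bear out (5 of 12 arrays correlated best with their own number), the calls were 96, 0 and 30 in the same order of comparisons as the 164, 1 and 33. An offset of 50 moved Scgb3a1 on young replicate 4 to 1.63 over its median (main 3.06) for ILMN_2638082 and to 0.86 (1.79) for ILMN_2658200, and Sftpc on aged replicate 1 to 0.21 (0.59), by its larger added constant. It also gave 1 other airway gene past the threshold, Mlf1. Signal near background limits Foxj1, Scgb3a1, Sftpb and Sftpc.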
